A study of Rattus norvegicus with 15 samples.

Results

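Fibrillar collagens and fibronectin were followed through ribosome footprints and RNA of the newborn rat brain, as 4 rows of a count table with 22050 Ensembl gene IDs. The rows had been listed by ID with the names Col1a1 (ENSRNOG00000003897), Col1a2 (ENSRNOG00000011292), Col3a1 (ENSRNOG00000003357) and Fn1 (ENSRNOG00000014288), not by their values here. No annotation at hand paired these IDs with symbols, so the names are those of the list. Of the 4 rows, 3 held counts in each of the 15 libraries. The row listed as Col1a2 held no footprint count at all and is called by its ID below.

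Whole brains of Sprague Dawley rats were taken on postnatal day 5, with 5 brains in each homogenate. Footprints were taken from the pellet of a sucrose gradient, a fraction of dense ribosome clusters, after RNase I digestion and a second gradient to recover single ribosomes. Groups were 5 vehicle libraries, 3 with 100 ug/ml cycloheximide (a blocker of translation elongation) in the homogenisation buffer, 2 whose pellet was held in 400 mM NaCl before digestion, and 5 RNA-seq libraries from homogenate of the control condition. Buffers otherwise held 150 mM NaCl. The homogenate for footprints, unlike that for RNA-seq, was cleared of debris by a spin before detergent was added. No label says whether libraries with different numbers came from separate homogenates, so p-values measure only the spread between these libraries, which may be technical.

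The libraries fell into a deeply sequenced set and a shallow set. Empty cells in 6 rows of the table marked the same split. The 9 deep libraries (vehicle, cycloheximide and RNA 1 to 3) held 19223750 to 53645452 counts, and the 6 shallow ones (vehicle and RNA 4 and 5, salt 1 and 2) held 941637 to 2808779. Cycloheximide was therefore compared with vehicle 1 to 3, and salt with vehicle 4 and 5. Col1a1, Col3a1 and Fn1 had 430 to 4019 counts in deep libraries and 42 to 411 in shallow ones. The 95% Wilson half-width was 3.09% to 9.46% of the value in deep libraries and 9.68% to 30.6% in shallow ones, and covers counting error only. It takes counts as independent, which the even RNA-seq counts put in question, so it may be too narrow for RNA. All 20 RNA-seq counts of the 4 rows were even numbers, against 12 of 30 footprint counts of the measured rows. Why they were even was not tested, and with RNA counts halved the Col3a1 call described below held (adjusted p 0.0367 by edgeR).

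Fibrillar collagens are secreted, rope-like proteins of connective tissue. Their chains are made on ribosomes bound to the endoplasmic reticulum, where they are hydroxylated and folded into a triple helix before export. Type I collagen is built from the chains of Col1a1 and Col1a2, type III collagen from the chain of Col3a1 alone, and fibronectin, the product of Fn1, is a large glycoprotein that links cells to collagen. In brain these proteins are known mainly from the meninges and from cells around blood vessels, not from neurons. The table has no gene names, so markers of those cells, of neurons and of glia were not examined here. In these bulk libraries, fewer cells of a type and less RNA per cell cannot be told apart.

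Col1a1 footprints were present at 95.0, 45.9, 74.9, 216 and 146 CPM (counts scaled to the library total) in vehicle libraries 1 to 5. Its homogenate RNA was 94.7, 102, 104, 63.2 and 146 CPM in RNA-seq libraries 1 to 5. In the deep set the RNA values were nearly equal while the footprints spread 2.07-fold, and in the shallow set RNA-seq library 4 had the lowest Col1a1 level and vehicle library 4 the highest of its group. The groups overlapped. Vehicle footprints averaged 116 ± 67.0 CPM (SD, n = 5) and RNA 102 ± 29.5 CPM (SD, n = 5).

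Col3a1 footprints were 52.7, 23.5, 27.3, 106 and 65.2 CPM in vehicle libraries 1 to 5. Col3a1 RNA was 90.3, 74.0, 85.7, 21.3 and 45.0 CPM in RNA-seq libraries 1 to 5. Within the deep set every RNA value lay above every footprint value, and within the shallow set every footprint value lay above every RNA value. The share of all genes that separate in either way was not counted, so this only describes the values. Over both sets vehicle footprints averaged 55.0 ± 33.4 CPM (SD, n = 5) and RNA 63.3 ± 29.3 CPM (SD, n = 5), with overlapping groups.

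Fn1 footprints were 51.4, 16.5, 20.4, 46.4 and 65.9 CPM in vehicle libraries 1 to 5, and Fn1 RNA was 26.8, 51.8, 59.3, 16.6 and 43.3 CPM. The groups overlapped in the deep set, where the first footprint library was the highest and the first RNA-seq library the lowest. They did not overlap in the shallow set, where footprints were higher, and the share of all genes that do so was not counted. Vehicle footprints averaged 40.1 ± 21.1 CPM (SD, n = 5) and RNA 39.5 ± 17.6 CPM (SD, n = 5). Levels were not compared between genes, because no transcript lengths of the annotation used were at hand.

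**Figure D1:**
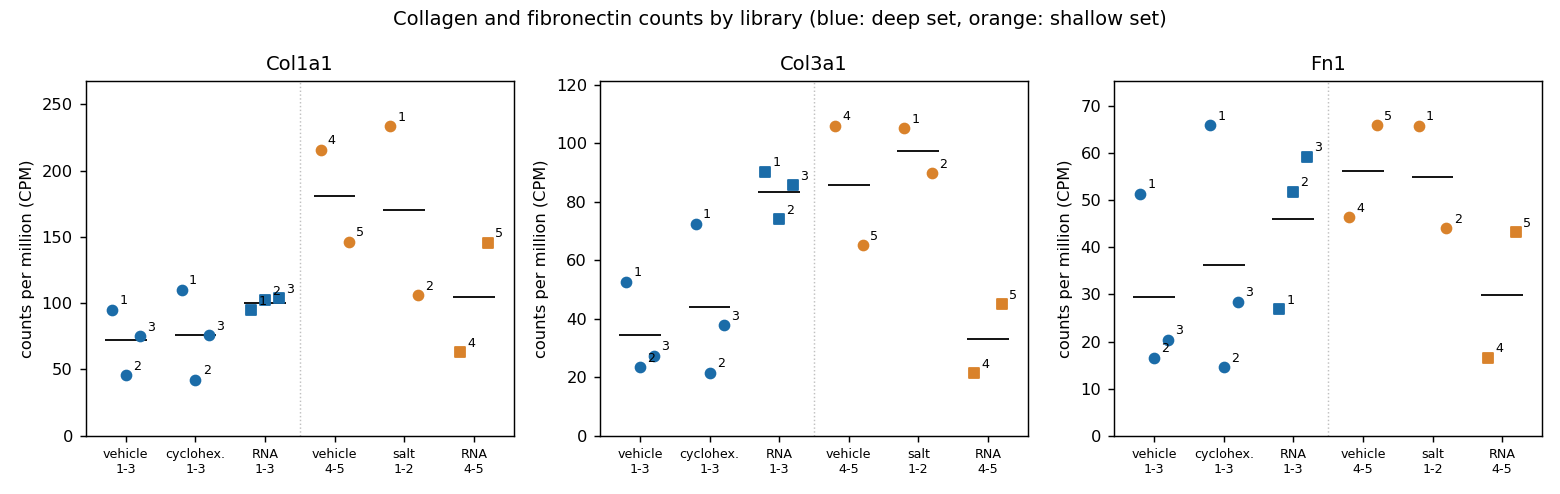
CPM (y axis) of Col1a1, Col3a1 and Fn1 in each library, by group and set (x axis). Points are libraries with their title numbers, circles are footprints, squares are RNA and bars are group means. Col3a1 RNA lies above the vehicle footprints in libraries 1 to 3 (74.0 to 90.3 against 23.5 to 52.7 CPM) and below them in libraries 4 and 5 (21.3 and 45.0 against 65.2 and 106 CPM). The share of all genes that separate in these ways was not counted.

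ENSRNOG00000011292, listed as Col1a2, had 0 counts in all 10 footprint libraries, which together held 218478838 counts. A count of 0 in that total allows up to 0.0137 CPM. In RNA-seq libraries 1 to 5 the row had 16, 26, 10, 0 and 8 counts, or 0.832, 0.999, 0.384, 0 and 3.53 CPM. RNA-seq libraries 4 and 5 had floors of 3 counts at 1.18 and 1.32 CPM, so the 0 in library 4 does not separate it from the deep libraries. In the deep set the RNA mean of 0.738 ± 0.318 CPM (SD, n = 3) was at least 9.91-fold above the mean floor of the vehicle footprint libraries, 0.0745 CPM. The filter on low counts removed the row from the comparison of all 5 against 5 libraries. It let the row into the deep set through its RNA alone, so a call there was fixed by the filter and is not given as a result. The row was not alone in this: 2764 of 19759 genes with an RNA count (14.0%) had no count in any footprint library, and 287 of these, this row included, had an RNA mean at or above its own. The chain of Col1a2 is normally made with that of Col1a1 in the same cells, and the values of this row differ that far from those of the row listed as Col1a1. Whether its counts represent Col1a2 was not checked, and no statement about Col1a2 rests on them.

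The comparison of vehicle footprints with homogenate RNA asked how a transcript's footprints in the pelleted ribosome clusters stood against its total RNA. No tested collagen or fibronectin row was called over all 5 against 5 libraries, where 27.9% of 14347 genes were called by edgeR's quasi-likelihood test at an adjusted p under 0.05 (TMM scaling, Benjamini-Hochberg over all genes). The fitted log2 ratio of Col1a1 was 0.61 (SE 0.33, 95% interval -0.10 to 1.32, edgeR adjusted p 0.188). That of Fn1 was 0.47 (SE 0.39, interval -0.36 to 1.30, adjusted p 0.391), and that of Col3a1 was 0.24 (SE 0.39, interval -0.59 to 1.06, adjusted p 0.679). The interval of Col1a1 reached a 2.50-fold excess of footprints. As a description, the ratios lay at percentiles 78.7, 72.6 and 62.6 of all tested genes for Col1a1, Fn1 and Col3a1. With total counts in place of TMM the values were 0.17 for Col1a1, -0.01 for Fn1 and -0.24 for Col3a1, so the sign of the last 2 flips. That scaling moved the median of all tested genes from -0.06 to -0.56, and the calls from 1834 higher and 2164 lower to 507 higher and 4252 lower.

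The pooled ratio of Col3a1 hid opposite values in the sets. By title number, the Col3a1 ratio of footprint CPM to RNA CPM was 0.583, 0.318 and 0.319 for numbers 1 to 3, and 4.98 and 1.45 for numbers 4 and 5. The Fn1 ratio was 1.92, 0.319, 0.344, 2.80 and 1.52, and the Col1a1 ratio was 1.00, 0.448, 0.721, 3.42 and 1.00. For Col3a1 every deep ratio was below 1 and every shallow ratio above it. Fitted with total counts, the median gene lay at log2 -0.75 in the deep set and -0.34 in the shallow set. A deep ratio below 1 was therefore usual among tested genes and did not set Col3a1 apart. In these fits Col3a1 lay at -1.27 (percentile 33.9) in the deep set and 1.36 (percentile 97.6) in the shallow set. For Fn1 number 1 stood with the shallow numbers, and for Col1a1 the ratios of numbers 1 and 5 were equal when rounded. The library numbers did not pair footprints with RNA by a check over all genes, so these ratios describe libraries of the same number and are not a paired test.

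**Figure D2:**
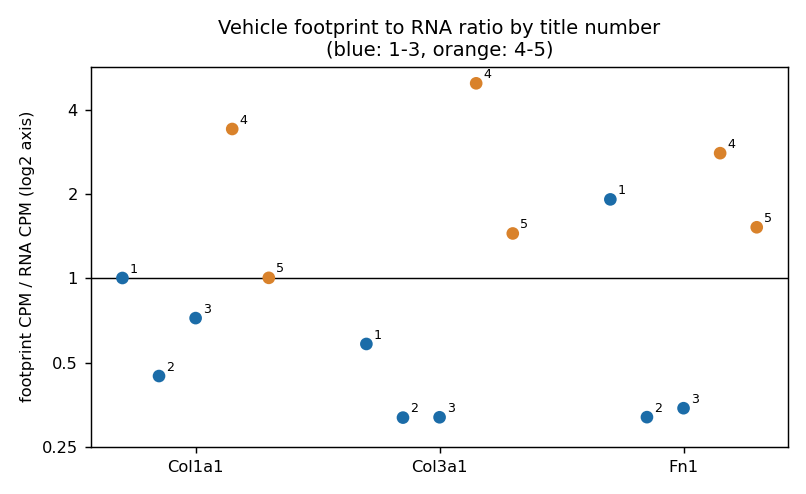
Ratio of vehicle footprint CPM to homogenate RNA CPM (y axis, log2 scale) for libraries of the same title number, by gene (x axis). The line marks equal CPM, not the ratio of the median gene. Fitted with total counts, that gene lay below the line, at log2 -0.75 (deep set) and -0.34 (shallow set). All 3 deep Col3a1 ratios lie between 0.318 and 0.583 and both shallow ones at 1.45 and 4.98.

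Fitted within the deep set, where 51.3% of 15335 genes were called, the TMM-scaled log2 ratio was -0.72 for Col3a1 (SE 0.28, interval -1.34 to -0.10, edgeR adjusted p 0.0519). It was 0.07 for Col1a1 (SE 0.24, adjusted p 0.811) and -0.11 for Fn1 (SE 0.44, adjusted p 0.856). None of these 3 rows was called. With total counts in place of TMM the Col3a1 value was -1.27 and passed the threshold (adjusted p 0.00518), while Col1a1 at -0.48 and Fn1 at -0.65 did not. Calls over all genes then went from 3374 higher and 4495 lower to 1281 higher and 7498 lower. Col3a1 footprints in this set averaged 34.5 ± 15.8 CPM (SD, n = 3) against RNA at 83.3 ± 8.42 CPM (SD, n = 3).

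Within the shallow set, where 3.79% of 11642 genes were called, no measured collagen or fibronectin row was called. The log2 ratios were 1.61 for Col3a1 (SE 0.46, interval 0.57 to 2.65, edgeR adjusted p 0.0971), 1.18 for Fn1 (SE 0.52, adjusted p 0.255) and 1.04 for Col1a1 (SE 0.39, adjusted p 0.184). They lay at percentiles 97.6, 93.8 and 91.7 of the genes tested there, against 33.6, 52.6 and 58.9 in the deep set. In CPM the shallow footprints of these rows lay above the shallow RNA, by as little as 146.3 against 145.7 CPM for Col1a1. How many of all genes do so was not counted, so this only describes the values.

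The difference between the sets was tested as an interaction of set and library kind. Col3a1 was called: its log2 ratio was 2.30 higher in the shallow set (SE 0.51, interval 1.20 to 3.39, edgeR adjusted p 0.0359), a 4.92-fold change of the ratio. In this test 2.47% of 16191 genes were called, 79 higher in the shallow set and 321 lower, and with total counts 92 and 92. With total counts the Col3a1 difference was 2.64 (adjusted p 0.0423). Fn1 differed by 1.27 (SE 0.71, adjusted p 0.323) and Col1a1 by 0.93 (SE 0.47, adjusted p 0.276), neither past the threshold. The direction for Col3a1 held when any single library was left out, with log2 differences from 2.00 to 2.92. The call did not: the adjusted p was 0.0505 to 0.155 without vehicle library 2, 3 or 4 or without any of RNA-seq libraries 1 to 5, and 0.0709 with limma-voom. It was 0.0102 without vehicle library 1 and 0.00811 without vehicle library 5.

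For Col3a1 neither the footprint nor the RNA difference between the sets passed the threshold by edgeR with TMM scaling. From the deep to the shallow set its mean footprint CPM was 2.48-fold higher, at 85.6 ± 28.9 CPM (SD, n = 2), and its mean RNA was 0.398 of the deep value, at 33.2 ± 16.8 CPM (SD, n = 2). The RNA difference had a log2 value of -1.15 (SE 0.30, edgeR adjusted p 0.0568, with 5.85% of 15930 genes called, 624 higher and 308 lower, or 569 and 1049 with total counts). It passed the threshold by edgeR with total counts only (-1.33, adjusted p 0.0291, 10.2% of genes called) and with upper-quartile factors (adjusted p 0.0422, 7.05% called). It also passed by edgeR without the filter on low counts (adjusted p 0.0339, 5.9% called) and with DESeq2 (adjusted p 0.00763, 15.3% called). It did not pass by edgeR with RLE factors (adjusted p 0.0587) or with limma-voom (adjusted p 0.104). Nor did it pass by edgeR without RNA-seq library 1, 2 or 3 (adjusted p 0.0934 to 0.177). Without RNA-seq library 5, which leaves only RNA-seq library 4 in the shallow set, the log2 value was -1.76. Without RNA-seq library 4, which leaves only library 5, it was -0.73. Col1a1 footprints were 2.52-fold higher in the shallow set, at 181 ± 49.1 against 71.9 ± 24.7 CPM (SD, n = 2 and 3), while its mean RNA was within 1.04-fold. That RNA mean rests on 63.2 and 146 CPM: the log2 RNA difference of Col1a1 was 0.69 without RNA-seq library 4 and -0.46 without library 5. The footprint differences had log2 values of 1.30 for Col1a1 (SE 0.32, edgeR adjusted p 0.126), 1.28 for Col3a1 (SE 0.38, adjusted p 0.134) and 0.93 for Fn1 (SE 0.49, adjusted p 0.269), with 0.128% of 14072 genes called. With DESeq2, which called 11.4% of 14072 genes, the adjusted p was 0.00686 for Col1a1 and 0.0237 for Col3a1. No other scaling, filter or tool on all vehicle libraries passed for these genes. The adjusted p was 0.177 and 0.217 with limma-voom, and 0.0863 and 0.105 by edgeR without the filter. Without vehicle library 5, which leaves only vehicle library 4 in the shallow set, the log2 values were 1.50 and 1.54. Depth differed between the sets along with these values, and its part in them was not tested.

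**Figure D3:**
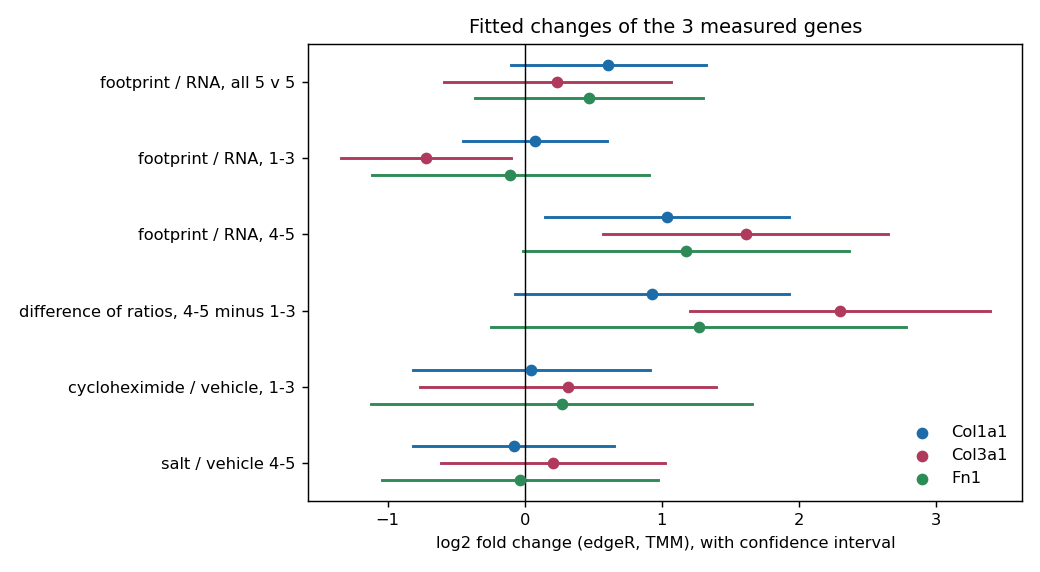
Fitted log2 fold changes (x axis) of Col1a1, Col3a1 and Fn1 with 95% intervals from edgeR for 6 contrasts (y axis). The Col3a1 difference between sets, 2.30, has an interval from 1.20 to 3.39, and every cycloheximide and salt interval spans 0.

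Ratios between the genes within a library do not depend on how libraries are scaled. The ratio of Col3a1 to Col1a1 counts was 0.554, 0.513, 0.365, 0.491 and 0.445 in vehicle libraries 1 to 5. In RNA-seq libraries it was 0.954, 0.722 and 0.825 for numbers 1 to 3 and 0.338 and 0.309 for numbers 4 and 5. The vehicle libraries of the sets thus shared a range while the RNA-seq libraries did not, and the footprint values fell between those of deep and shallow RNA. The log2 ratio of RNA was 1.36 lower in the shallow set (exact two-sided permutation p 0.2), and that of vehicle footprints -0.01 apart (exact p 1), where 0.2 is the smallest p that this test can give for 2 against 3 libraries.

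Over all libraries the Col3a1 to Col1a1 log2 ratio of vehicle footprints minus that of RNA was -0.28, less than the spread between libraries (exact two-sided permutation p 0.452). The difference was -0.82 in the deep set (exact p 0.1, the smallest possible) and 0.53 in the shallow set (exact p 0.333, the smallest possible). For Fn1 to Col1a1 it was -0.06 over all libraries (exact p 0.849), -0.21 in the deep set and 0.16 in the shallow set. For Fn1 to Col3a1 it was 0.21 over all libraries (exact p 0.556), 0.61 in the deep set (exact p 0.1, the smallest possible) and -0.38 in the shallow set. Among the 15 tests of such ratios the Benjamini-Hochberg adjusted p was 1 in each.

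The Fn1 to Col3a1 count ratio was low in RNA-seq library 1, at 0.297, against 0.700, 0.691, 0.778 and 0.961 in RNA-seq libraries 2 to 5. In vehicle library 1 the same ratio was 0.976, against 0.703, 0.745, 0.438 and 1.01 in libraries 2 to 5. The low value was thus found in RNA-seq library 1 and not in vehicle library 1, and these were not taken as paired. The same did not hold against Col1a1. The Fn1 to Col1a1 ratio was 0.284 in RNA-seq library 1, between the 0.263 and 0.297 of libraries 4 and 5, and 0.506 and 0.571 in libraries 2 and 3.

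**Figure D4:**
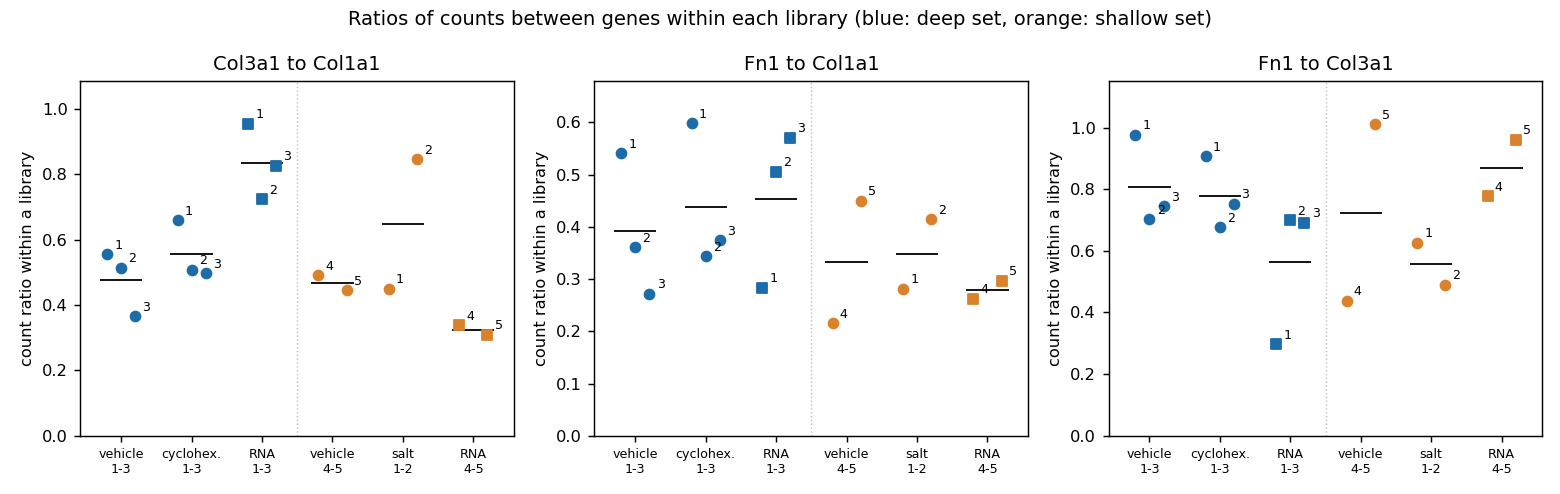
Count ratios between genes within each library (y axis) by group and set (x axis). Points are libraries with their title numbers and bars are arithmetic means. The Col3a1 to Col1a1 ratio of RNA lies between 0.722 and 0.954 in libraries 1 to 3 and at 0.309 and 0.338 in libraries 4 and 5.

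The cycloheximide comparison asked whether the inhibitor, present while the brains were homogenised, changed the footprints. Neither the collagens nor fibronectin were called, and edgeR called 0% of 13871 genes (70 had an unadjusted p under 0.05, and DESeq2 and limma-voom also called 0). Col1a1 footprints were 110, 42.4 and 76.0 CPM in cycloheximide libraries 1 to 3, beside 95.0, 45.9 and 74.9 CPM in vehicle libraries of the same numbers. Col3a1 footprints were 72.6, 21.5 and 37.8 CPM, and Fn1 footprints 65.9, 14.6 and 28.4 CPM. In each treatment and for each of the 3 genes, library 1 was the highest and library 2 the lowest. Library 1 also stood apart over all genes. Its chi-square per degree of freedom against libraries 2 and 3 was 200.3 and 192 with vehicle, where libraries 2 and 3 differed by 20.69. With cycloheximide these values were 158.7, 138.5 and 32.47. How many genes share the order of the libraries was not counted. Fn1 in library 1 exceeded library 2 by 3.11-fold with vehicle and 4.52-fold with cycloheximide. In RNA-seq libraries, which were not taken as paired with footprints, Fn1 of number 1 was 0.518 of that of number 2.

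Between same-numbered libraries the ratio of cycloheximide to vehicle was 1.16, 0.924 and 1.01 for Col1a1, 1.38, 0.914 and 1.38 for Col3a1, and 1.28, 0.881 and 1.40 for Fn1. Each gene was lower with cycloheximide for number 2 and higher for numbers 1 and 3. The share of all genes with these directions was not counted. The fitted log2 changes were 0.05 for Col1a1 (SE 0.37, interval -0.82 to 0.91), 0.32 for Col3a1 (SE 0.46, interval -0.77 to 1.40) and 0.27 for Fn1 (SE 0.60, interval -1.12 to 1.66), with edgeR adjusted p at 1.00 for each. These changes were smaller than the spread between replicates. The upper limit was a 3.16-fold increase for Fn1 and 2.63-fold for Col3a1. With the title number as a block it was 1.44-fold and 1.48-fold, with no call. The check over all genes did not establish numbers 2 and 3 as pairs.

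The salt comparison asked whether 400 mM NaCl, which loosens some proteins from ribosomes, changed the footprints of the resuspended pellet. No collagen or fibronectin row was called, and edgeR called 0% of 9803 genes (185 had an unadjusted p under 0.05, DESeq2 called 0 and limma-voom 1). Col1a1 was at 234 and 106 CPM in salt libraries 1 and 2, around the 216 and 146 CPM of vehicle libraries 4 and 5. Col3a1 was at 105 and 89.8 CPM, from 99 and 104 counts, against 106 and 65.2 CPM. Fn1 was at 65.8 and 44.0 CPM, from 62 and 51 counts, against 46.4 and 65.9 CPM. The groups overlapped for all 3 genes.

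The fitted log2 changes with salt were -0.08 for Col1a1 (SE 0.35, interval -0.81 to 0.65), 0.21 for Col3a1 (SE 0.39, interval -0.61 to 1.02) and -0.04 for Fn1 (SE 0.48, interval -1.04 to 0.97), with edgeR adjusted p at 1.00 for each. These changes were smaller than the spread between libraries, and the interval of Col3a1 reached a 2.03-fold increase. Against all 5 vehicle libraries with the title number as a block, Col1a1 at 1.29 (adjusted p 0.00466) and Col3a1 at 1.50 (adjusted p 0.00907) passed the threshold. That fit sets shallow salt libraries against deep vehicle libraries of the same number, so salt and set cannot be told apart in it.

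To describe how the 3 genes varied together, each library's log2(CPM + 1) was taken as the deviation from the mean of its group and set. Over the 15 libraries the deviations of Col1a1 and Col3a1 had a Pearson r of 0.868 and a Spearman rho of 0.861. The values were 0.794 and 0.789 for Col1a1 and Fn1, and 0.806 and 0.707 for Col3a1 and Fn1. Without the 2 libraries farthest from the median of the first gene, r was 0.801, 0.699 and 0.657 in the same order. Cycloheximide library 2 was left out in each case, with RNA-seq library 4 or cycloheximide library 1. In the 10 footprint libraries alone r was 0.85, 0.79 and 0.87 in the same order, and 0.74, 0.61 and 0.64 without 2 libraries. In the 5 RNA-seq libraries alone r was 0.94, 0.82 and 0.61. Without RNA-seq libraries 4 and 5 it was -0.59, 0.9998 and -0.58, from 3 libraries. Cycloheximide library 1 and vehicle library 1 deviate together over all genes (r = 0.838), so the points are not independent. Among 12017 other genes whose counts averaged 50 or more, Col3a1 had rank 132 in likeness to Col1a1 and Fn1 had rank 433. By levels over the 5 RNA-seq libraries alone the ranks were 2737 and 1258. The gene most like the mean of the 3 by this measure was ENSRNOG00000049437, with r = 0.978, and the fifth most alike had r = 0.967.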

How the data were processed

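The authors deposited 1 table of raw read counts per Ensembl rat gene ID, with 15 columns that matched sample titles. The submitters' processing notes name CASAVA, cutadapt 2.8, Bowtie2 2.3.5, STAR 2.7.3a, deepTools and build Rnor_6.0. The counting program and annotation are not given in the sources used here. Groups and numbers came from titles, and 6 rows with empty cells were left out, so 22044 genes were used.

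Counts were fitted in R 4.3.3 with edgeR 4.0.16 (TMM, filterByExpr, robust quasi-likelihood F-test, Benjamini-Hochberg over all genes, called at adjusted p under 0.05). A standard error is the absolute log2 value over the square root of F, and intervals use the fit's degrees of freedom. Alternatives used DESeq2 1.42.0 and limma 3.58.1. Ratios between genes used exact two-sided permutation tests in scipy 1.17.1. The edgeR fit of each comparison, with TMM scaling and the filter, was run on simulated data. The alternative fits were not. The floor of a library is 3 counts. Comparisons between sets within a library kind, and ratios between genes, were added after the values were seen.

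The 4 rows and all gene lists were chosen with earlier results of these data known. The 16 lists of pathway and marker symbols were not used, since 0 of the table's IDs matched the reference table. By rule the 4 rows and the genes most alike were named, and of the latter only the first by deviations is printed, because IDs lack symbols and levels fall into the sets. Pairing was checked by correlating deviations from group means over 12018 genes. Same-numbered cycloheximide and vehicle libraries correlated at 0.838, 0.456 and 0.445. Each exceeded 0.1, so the numbers were taken as pairs for the block. Cycloheximide libraries 2 and 3 correlated best with vehicle libraries 3 and 2, so the check does not establish those pairs. Vehicle and RNA-seq libraries correlated at -0.0821 to 0.244 and were not taken as paired. No pair of the 24 within groups agreed within sampling noise (smallest chi-square per degree of freedom 7.58).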

Additional observations from a re-analysis of the deposited data

Results flagged for a closer look

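Single libraries far from the rest of their group were looked for in 16 values of groups of 5, and 2 were found, where chance gives about 0.8 (1 in 20). The row ENSRNOG00000011292 was highest in RNA-seq library 5, where its 8 counts gave 3.53 CPM (95% Wilson interval 1.79 to 6.97 CPM, with counts taken as independent). The remaining RNA-seq libraries lay between 0 and 0.999 CPM. The log2 ratio of Fn1 to Col3a1 counts was -1.75 in RNA-seq library 1, from 516 and 1736 counts, and the other 4 RNA-seq libraries lay higher. The log2 footprint to RNA ratio of Col3a1 differed between the shallow and the deep set by 2.30 (edgeR interaction test, adjusted p 0.0359), with the limits on that call given above.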

How the results depend on the processing

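Of 489 alternative values, 370 gave the same sign and the same call as the reported value, or stayed near it. The cause of the others was not tested.

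Over all 5 vehicle and 5 RNA libraries 3998 genes were called, against 6048 with limma-voom, 7869 in the deep set, 441 in the shallow set, 7088 in the deep set with the replicate block, and 8779 and 420 in the deep and shallow sets with total counts. Called rows of the 4 were 0, against 1 without the filter on low counts or in the deep set, 2 in the deep set with the block or with total counts, and 0 to 1 with a library left out. These counts include ENSRNOG00000011292, which has no footprint count and is tested only without the filter or where its RNA passes it; apart from it, Col3a1 alone was called, in the deep set with the block or with total counts. The log2 footprint to RNA ratio turned sign for Col3a1 with total counts (-0.24), with limma-voom (-0.30), in the deep set (-0.72, and -0.80 with the block, adjusted p 0.0277 by edgeR; -1.27 with total counts) and over left-out libraries (-0.073 to 0.42). It turned for Fn1 with total counts (-0.0088) and in the deep set (-0.11, -0.23 with the block, -0.65 with total counts), and for Col1a1 in the deep set with total counts (-0.48). Vehicle and RNA-seq libraries share only a number, so the block is no paired test.

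For the difference between sets 400 genes were called, against 253 with upper-quartile factors, 184 with total counts, 1600 with DESeq2, 51 with the replicate block in place of the set term, and 37 to 3031 with a library left out. Col3a1 was the called row, and 0 rows were called with limma-voom or with the block (2.41, edgeR adjusted p 0.0977), and 0 to 1 with a library left out.

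For cycloheximide the block changed no call (0 genes), and narrowed the intervals to -0.22 to 0.24 for Col1a1, -0.08 to 0.56 for Col3a1 and -0.14 to 0.53 for Fn1. With a library left out the log2 values ran from -0.29 to 0.34 for Col1a1, -0.22 to 0.75 for Col3a1 and -0.45 to 0.93 for Fn1, and against all 5 vehicle libraries they were -0.60, -0.30 and -0.15.

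For salt 2 genes were called without the filter, 1 with limma-voom, 0 to 19 with a library left out, and 482 genes and 2 of the rows against all 5 vehicle libraries with the block. Left-out libraries gave -0.76 to 0.39 for Col1a1, -0.070 to 0.53 for Col3a1 and -0.36 to 0.29 for Fn1. Against all 5 vehicle libraries Col1a1 was at 0.59 and Fn1 at 0.49, and with the block at 1.29 and 0.91.

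Between the RNA of the sets, left-out libraries gave -0.46 to 0.69 for Col1a1 and -1.27 to 0.059 for Fn1, and called 142 to 1622 genes and 0 to 1 rows. Between the vehicle footprints they called 15 to 3648 genes and 0 to 2 rows. Differences of ratios between genes turned sign in the shallow set (0.53 for Col3a1 to Col1a1, 0.16 for Fn1 to Col1a1 and -0.38 for Fn1 to Col3a1) and over left-out libraries (-0.22 to 0.11 for Fn1 to Col1a1 and -0.062 to 0.41 for Fn1 to Col3a1). In the shallow set counts as low as 42 and 2 libraries a group limit every comparison.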
